A study of Mus musculus with 12 samples.

Results

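The 38 genes described here encode the machinery that copies DNA at a replication fork and the enzymes that supply its nucleotides. They are grouped by function and are the rows of the deposited gene table with 38 listed symbols, of 31641 symbols in all. All 38 were found in the table and all 38 passed the filter on low counts. The study sequenced RNA from 4 lines of mouse embryonic stem cells, pluripotent cells derived from blastocysts of the inbred strain C57BL/6. WT-1 and WT-2 are wild type, and Mut-1 and Mut-2 carry the genotype given in the labels as Tin2 S341X. Tin2 is the protein of the gene Tinf2, a subunit of the shelterin complex that covers telomeres, and the name of the allele denotes a stop codon in place of a serine. Every line was grown with serum and LIF on a layer of mouse embryonic fibroblasts, the feeder cells. RNA was isolated without a stated step to remove them, so each of the 12 libraries, 3 per line, can hold feeder transcripts. The series' design text names these 3 libraries technical replicates, and the line was therefore taken as the unit of the genotype, with 2 lines each.

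At a replication fork the MCM helicase, joined by Cdc45 and the GINS complex, unwinds the parental strands. Primase and DNA polymerase alpha lay down short primers, a clamp loader places the ring-shaped clamp PCNA at each primer, and polymerases epsilon and delta extend the leading and the lagging strand. Ribonucleotide reductase, thymidylate synthase and their partners provide the deoxynucleotides. Many of these genes are known targets of the E2F transcription factors, which drive their expression as cells pass from G1 into S phase, and embryonic stem cells are known for a cell cycle in which S phase takes up much of the time.

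The short promoter sequences that carry an E2F site are shown first, since they are what part of the set shares at the DNA level. In the window from 250 bases before to 50 bases after the transcription start, RefSeq promoters of 31 of the 38 genes were searched on both strands for TTTCCCGC, TTTGGCGC, TTTCGCGC or TTTGCCGC. An E2F site of this kind was present in 7 of the 31 (22.6%), against 704 of 27025 genes with a promoter in the same table (2.60%) and 4.26% of the 12049 of them that were expressed enough to be tested here. The capitals mark the site and the lower-case letters up to 10 flanking bases on either side, 5′ to 3′ on the strand of the gene (GRCm38.p6).
Pold1, chr7:44548766-44548786, minus strand: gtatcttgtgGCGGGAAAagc
Clspn, chr4:126556991-126557018, plus strand: ccgcgtctggGCGCGAAAgctcgaactt
Gins3, chr8:95633508-95633535, plus strand: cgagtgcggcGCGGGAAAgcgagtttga
Pole2, chr12:69228163-69228190, minus strand: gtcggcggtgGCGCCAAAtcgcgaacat
Lig1, chr7:13278842-13278869, plus strand: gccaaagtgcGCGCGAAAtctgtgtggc
Pola1, chrX:93632276-93632303, minus strand: tcatcacaggGCGCCAAAtgcactcccg
Rfc3, chr5:151651201-151651228, minus strand: cgtcgcacgcTTTCGCGCtcgcgggaaa

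The first base of the site lay 41 bases before the RefSeq start in Gins3, 138 before it in Pola1 and 10 before it in Rfc3. The sites of Pold1, Clspn, Pole2 and Lig1 lay within the first 50 bases after it. Starts differ between annotations: GENCODE M21 has Gins3 begin at 95633453 and Rfc3 at 151651242, which places both sites after the start. Rfc3 held a second, adjoining site, GCGGGAAA, which ends the stretch shown in lower case. With the stricter search for TTTCCCGC or TTTGGCGC alone, 5 of the 31 promoters matched (16.1%, against 1.80% of genes and 3.10% of tested genes). A match is a description of the letters in this window and not evidence that a factor binds there. Other promoter elements were searched in the same window. The CCAAT box (CCAAT) was present in 16 of 31 promoters (51.6%, against 41.1% of genes and 42.5% of tested genes), the cell cycle homology region (TTTGAA or TTCGAA) in 8 (25.8%, against 21.7% and 16.5%) and the GC box (GGGCGG) in 24 (77.4%, against 38.2% and 65.3%).

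Whole sequences of the 250 bases before the RefSeq start are given for a pair of genes. Gins3, a GINS subunit, has a single E2F site close to this start. It also has CCAAT boxes that begin 144 and 124 bases before the start. Top2a, the topoisomerase that untangles sister DNA and is best known as a late cell cycle gene, has no E2F site and 6 CCAAT boxes, 1 as written and 5 as the reverse complement ATTGG, between 227 and 58 bases before its start. The capitals mark only the E2F site of Gins3 and the CCAAT boxes of Top2a. Left in lower case are the CCAAT boxes of Gins3, and a GC box and matches to the cell cycle homology region in both genes.
Gins3, chr8:95633309-95633558, plus strand: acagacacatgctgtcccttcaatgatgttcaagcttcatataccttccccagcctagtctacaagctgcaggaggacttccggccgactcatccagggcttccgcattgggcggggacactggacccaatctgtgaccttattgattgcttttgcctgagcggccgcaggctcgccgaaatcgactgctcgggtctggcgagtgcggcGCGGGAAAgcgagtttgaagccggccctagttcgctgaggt
Top2a, chr11:99024190-99024439, minus strand: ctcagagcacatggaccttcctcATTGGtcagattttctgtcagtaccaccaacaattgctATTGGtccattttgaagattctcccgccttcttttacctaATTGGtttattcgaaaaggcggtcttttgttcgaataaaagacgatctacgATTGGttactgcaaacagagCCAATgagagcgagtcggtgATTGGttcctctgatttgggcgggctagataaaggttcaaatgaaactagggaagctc

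Library totals ran from 14766477 to 17891894 counts and line totals from 47284654 to 52074216. As a check of the labels, Tinf2 stood between 57.7 and 69.2 CPM (counts scaled to 1000000 per library, with TMM normalization) in the 6 wild-type libraries and between 19.7 and 30.1 CPM in the 6 mutant libraries, a log2 fold change of -1.30 (SE 0.11). In the edgeR test on line totals used below, even Tinf2 did not pass the threshold of 0.05 (adjusted p = 0.0652). WT-1 replicates 1 and 2 differed by far less than any other pair of libraries of a line, with a chi-square per degree of freedom of 1.66 against 12 to 42.5, so they add little independent evidence of spread. The other pairs differed by far more than counting noise, and the labels do not say whether they came from separate cultures. Markers of embryonic stem cells were abundant in each library, with summed levels of 7570 to 8950 CPM in wild-type and 6990 to 9170 CPM in mutant libraries. Feeder fibroblast markers were detected too: their share of a library's counts was 1.03% to 1.39% in the wild-type libraries, and 2.4% in Mut-1 replicate 1, 2.1% in Mut-2 replicate 1 and 2.2% in Mut-2 replicate 2, against 1.14% to 1.31% in the other mutant libraries. These 3 feeder-rich libraries bear on every comparison of genotypes below.

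Most fork and nucleotide genes had lower fitted values in the mutant lines, by modest amounts, and none passed the threshold. Of the 38 genes, 35 had a fitted value below 0 in the mutant against the wild-type lines, beside 50.2% of all genes tested. The median log2 fold change was -0.26 over the 38 genes, with quartiles of -0.32 and -0.13. It was -0.09 with the feeder share as a covariate or without the 3 feeder-rich libraries, as described further on, and -0.17 without Mut-1 replicate 1 alone. Gins4, Pold1 and Pola2 stood at -0.43, -0.43 and -0.39, while Wdhd1, Rfc3 and Prim2 were the 3 genes above 0, at 0.20, 0.11 and 0.03. By the quasi-likelihood test of edgeR on line totals (2 against 2 lines, Benjamini-Hochberg adjusted over 18749 genes), 0 of the 38 genes passed the threshold of 0.05, where the share of all genes passing in either direction was 0%. The smallest adjusted p among them was 0.223, for Pola2.

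At an unadjusted p under 0.05 in the same edgeR fit, 16 of the 38 genes were lower and 0 were higher, beside 3.88% of all genes lower and 9.17% higher. The 16 became 8 when replicate 1 of Mut-1 was left out, 8 when replicate 1 of Mut-2 was, and 24 when replicate 3 of Mut-2 was. The shares of all genes at that p in these 3 fits are not given here, so these changes cannot be set against those of all genes. DESeq2 on the line totals called 0 of the 38 lower (0.476% of the 13660 genes with an adjusted p, which Fen1 lacked). The smallest DESeq2 adjusted p was 0.0661, for Pold1. At an unadjusted p under 0.05 DESeq2 had 14 of the 38 lower and 0 higher, beside 3.25% and 7.29% of all 18749 genes. The limma-voom fit of the 12 libraries with line as a random block called 0 of the 38 lower (0.267% of all genes), with a smallest adjusted p of 0.0601 for Gins2. That fit had 19 genes lower and 1 higher at an unadjusted p under 0.05, beside 7.15% and 10.7% of all genes. Its consensus correlation between libraries of a line was -0.002, so it treated the 12 libraries as nearly independent. Its p-values therefore rest on the spread between libraries more than between lines. In bulk RNA, fewer cells in S phase, more cells of another type and less RNA per cell cannot be told apart.

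**Figure D1:**
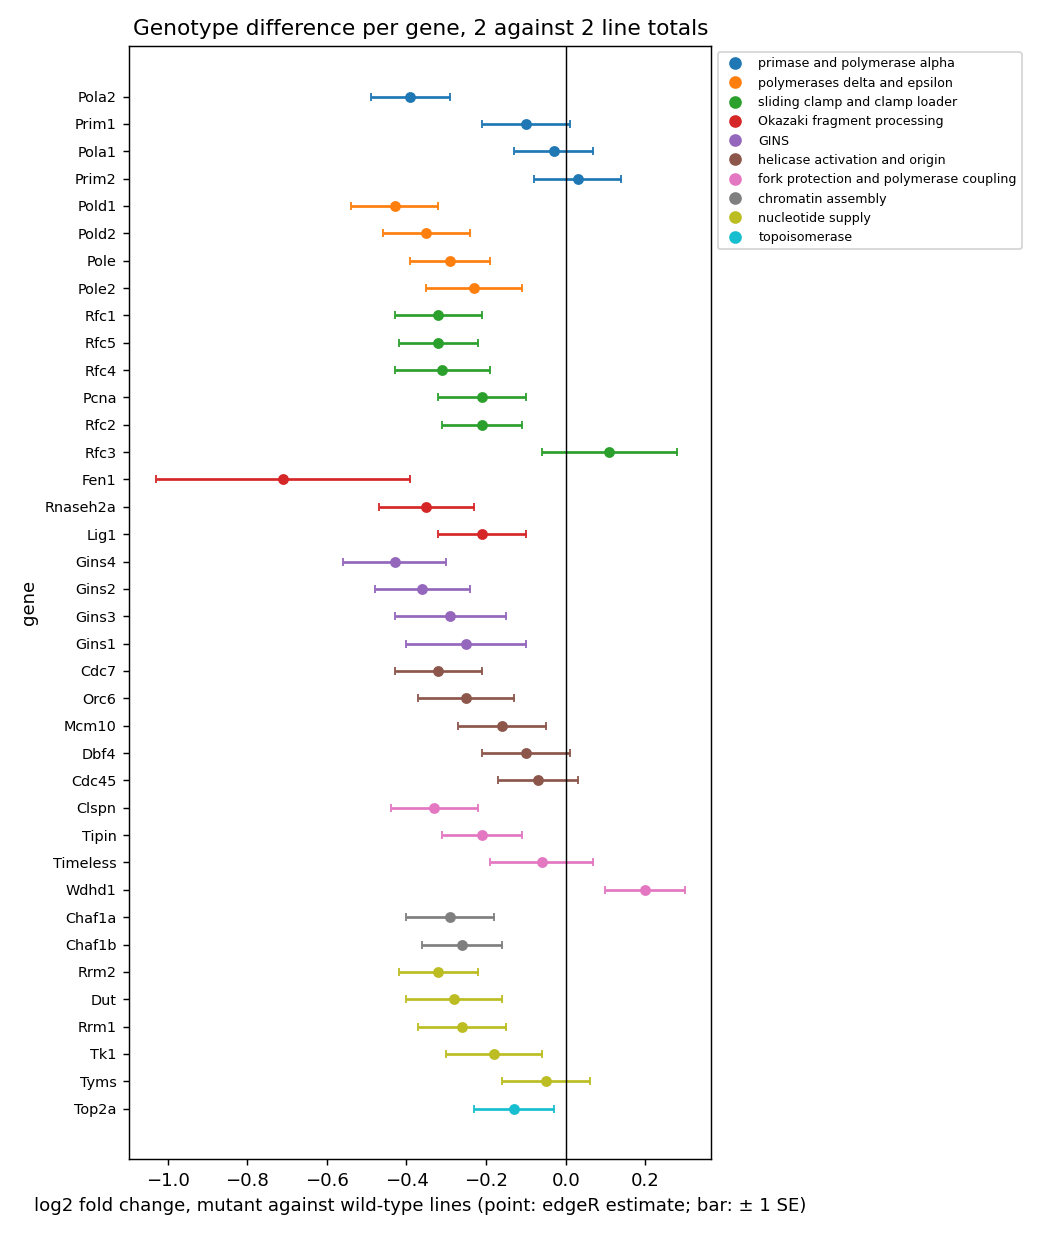
Log2 fold change of each of the 38 genes in mutant against wild-type lines (x axis, edgeR on 2 against 2 line totals), grouped and coloured by role, with bars of 1 SE on either side. All but Wdhd1, Rfc3 and Prim2 lie below 0, and Fen1, with 3 to 19 counts per library, has the widest bar.

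Primase and polymerase alpha start each new strand. Their genes had a median log2 fold change of -0.07, and 3 of the 4 were below 0. Pola2 (chr19:5940542-5964202, GRCm38), the regulatory subunit of polymerase alpha, stood apart from the other 3. Its values, given here and below for replicates 1, 2 and 3 of each line in turn, were 135, 143 and 107 CPM (WT-1), 148, 130 and 112 (WT-2), 92.5, 109 and 97.0 (Mut-1) and 99.4, 92.1 and 107 (Mut-2). Mutant and wild-type libraries overlapped only through the lowest wild-type library, WT-1 replicate 3. The line values were 130 ± 1.15 CPM in wild type and 98.9 ± 0.918 CPM in mutant (SD, n = 2 lines), 23.7% lower, with a log2 fold change of -0.39 (SE 0.10, edgeR adjusted p = 0.223).

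Prim2, the large primase subunit, was nearly level. Its libraries read 52.8, 53.5 and 56.3 CPM (WT-1), 45.4, 51.0 and 55.3 (WT-2), 49.2, 56.6 and 63.7 (Mut-1) and 46.7, 50.4 and 57.9 (Mut-2), for a log2 fold change of 0.03 (SE 0.11). The groups overlapped, although 3 mutant libraries were above the highest wild-type one. Pola1, the catalytic subunit of polymerase alpha, ranged from 86.2 to 105 CPM in wild-type and from 82.4 to 96.9 CPM in mutant libraries, with a log2 fold change of -0.03. Prim1, the catalytic primase subunit, ranged from 94.2 to 108 CPM in wild-type and from 79.0 to 116 CPM in mutant libraries, with a log2 fold change of -0.10. Within this complex Pola2 was the lowest.

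Polymerases delta and epsilon synthesize the bulk of the lagging and the leading strand. The 4 genes of this group were all below 0, with a median log2 fold change of -0.32. Pold1 (chr7:44532746-44548849), the catalytic subunit of polymerase delta and one of the genes with an E2F site shown above, was the lowest. It was measured at 202, 205 and 142 CPM (WT-1), 219, 180 and 175 (WT-2), 120, 141 and 133 (Mut-1) and 146, 130 and 174 (Mut-2). Mut-2 replicates 1 and 3 overlapped with the wild-type range through its lowest library, WT-1 replicate 3. The line values were 188 ± 5.63 CPM in wild type and 140 ± 14.2 CPM in mutant (SD, n = 2 lines), with a log2 fold change of -0.43 (SE 0.11, edgeR adjusted p = 0.228).

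Pole (chr5:110286306-110337474), the catalytic subunit of polymerase epsilon, was one of the 2 genes, with Clspn, for which each of the 6 mutant libraries lay below each of the 6 wild-type libraries. Its values were 136, 139 and 136 CPM (WT-1), 125, 138 and 136 (WT-2), 112, 125 and 111 (Mut-1) and 103, 107 and 114 (Mut-2). WT-2 replicate 1 and Mut-1 replicate 2 both rounded to 125 CPM, so the groups nearly touched. The log2 fold change was -0.29 (SE 0.10, edgeR adjusted p = 0.311). Over all genes tested, 0.645% were separated in this direction and 1.33% in the other, in which none of the 38 genes was. With RLE size factors in place of TMM, 1 of the 38 genes was separated.

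The accessory subunits behaved alike in direction. Pold2, of polymerase delta, ranged from 86.6 to 128 CPM in wild-type and from 77.3 to 94.4 CPM in mutant libraries, with a log2 fold change of -0.35 (SE 0.11). Pole2, of polymerase epsilon, was the nearest to 0 of the 4, at -0.23 (SE 0.12). Its libraries read 29.7, 25.3 and 27.2 CPM (WT-1), 27.6, 29.4 and 29.7 (WT-2), 22.7, 26.3 and 23.9 (Mut-1) and 19.9, 23.4 and 30.3 (Mut-2). The highest Pole2 value of all 12 libraries was in a mutant library, Mut-2 replicate 3.

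PCNA and its loader, the RFC complex, tether the polymerases to DNA. Of these 6 genes 5 were below 0, and the median was -0.26. Rfc1 (chr5:65261850-65335670), the large loader subunit, was the lowest. Its libraries read 159, 158 and 182 CPM (WT-1), 198, 190 and 202 (WT-2), 136, 163 and 151 (Mut-1) and 152, 128 and 148 (Mut-2). WT-2 was the highest line and a single mutant library, Mut-1 replicate 2, overlapped with wild type. The log2 fold change of Rfc1 was -0.32 (SE 0.11, edgeR adjusted p = 0.309).

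Rfc3 (chr5:151642756-151651242), a small loader subunit with an E2F site, was above WT-1 in Mut-1 and below WT-2 in Mut-2. It was measured at 51.6, 45.8 and 37.3 CPM (WT-1), 35.4, 48.6 and 49.2 (WT-2), 43.0, 61.9 and 68.8 (Mut-1) and 31.1, 38.2 and 49.4 (Mut-2). Mut-1 held the 2 highest libraries and Mut-2 the lowest one. Its log2 fold change was 0.11 (SE 0.17) between genotypes and -0.55 in Mut-2 against Mut-1 (edgeR adjusted p = 0.663), the widest difference of any of the 38 genes between lines of 1 genotype. Rfc3 lies near the end of chromosome 5, where the 20 expressed genes beside it had a median log2 fold change of 0.64 in Mut-1 against WT-1, with 20 of 20 above 0.

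The other loader subunits Rfc5, Rfc4 and Rfc2 had log2 fold changes of -0.32, -0.31 and -0.21. Rfc4 and Rfc5 share 12.7% and 10.7% of their exon bases with a gene on the opposite strand, and Rfc2 shares 15.1%. How reads in such overlaps were counted or set aside is not stated, so the effect on their counts is not known. Pcna, the clamp itself, had the highest level per length of the set, 190 CPM per kb of exon in wild type. It ranged from 378 to 522 CPM in wild-type and from 262 to 558 CPM in mutant libraries, so that mutant libraries held both the lowest and the highest value. Its log2 fold change was -0.21 (SE 0.11).

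Okazaki fragments are trimmed and joined by Fen1, Rnaseh2a and Lig1. All 3 were below 0, with a median of -0.35. Rnaseh2a, the catalytic subunit of RNase H2, which removes RNA from DNA, ranged from 58.5 to 87.1 CPM in wild-type and from 50.6 to 75.7 CPM in mutant libraries, with a log2 fold change of -0.35 (SE 0.12). Lig1, the ligase that seals the fragments, was at 344, 350 and 270 CPM (WT-1), 327, 365 and 332 (WT-2), 225, 327 and 276 (Mut-1) and 255, 303 and 361 (Mut-2). The Lig1 libraries overlapped widely and its log2 fold change was -0.21 (SE 0.11).

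Fen1, the flap endonuclease, cannot be read as a level in this table. It had 128 counts in all 12 libraries together, and 78.8% of its exon bases lie under Gm10143, a gene on the opposite strand. Its values were 1.11, 0.710 and 0.616 CPM (WT-1), 0.785, 0.832 and 0.793 (WT-2), 0.182, 0.207 and 0.993 (Mut-1) and 0.572, 0.438 and 0.554 (Mut-2). The lowest log2 fold change of the set, -0.71 (SE 0.32), therefore rests on 3 to 19 counts per library. Without Fen1 the median over the other 37 genes was -0.25 and 34 of the 37 were below 0.

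The 4 GINS subunits complete the active helicase. All 4 were below 0, with a median of -0.32. Gins4 (chr8:23226616-23237659) was the lowest gene of the set apart from Fen1. It was measured at 69.8, 70.9 and 50.4 CPM (WT-1), 54.4, 67.9 and 63.3 (WT-2), 36.9, 44.8 and 45.4 (Mut-1) and 42.8, 49.9 and 62.4 (Mut-2). A single mutant library, Mut-2 replicate 3, overlapped with the wild-type range. The line values were 62.9 ± 1.46 CPM in wild type and 46.5 ± 6.64 CPM in mutant (SD, n = 2 lines), with a log2 fold change of -0.43 (SE 0.13, edgeR adjusted p = 0.248).

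Gins1, at the other end of the group, read 47.8, 47.2 and 33.2 CPM (WT-1), 31.6, 43.0 and 30.5 (WT-2), 25.5, 33.1 and 32.4 (Mut-1) and 28.8, 31.9 and 48.3 (Mut-2). The highest of the 12 libraries was a mutant one, Mut-2 replicate 3, and the log2 fold change was -0.25 (SE 0.15). Gins2 ranged from 62.8 to 78.7 CPM in wild-type and from 46.4 to 63.4 CPM in mutant libraries, with a log2 fold change of -0.36 (SE 0.12). Of its exon bases, 67.3% lie under Gse1 on the opposite strand. Gins3 ranged from 17.1 to 25.3 CPM in wild-type and from 14.4 to 20.3 CPM in mutant libraries, with a log2 fold change of -0.29 (SE 0.14).

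Cdc7 and Dbf4 form the kinase that fires origins, Cdc45 and Mcm10 activate the helicase, and Orc6 belongs to the origin recognition complex. All 5 genes were below 0, with a median of -0.16. Cdc7 (chr5:106964322-106984432) was the lowest, at 58.7, 61.8 and 52.6 CPM (WT-1), 82.0, 48.2 and 53.3 (WT-2), 54.5, 50.2 and 48.7 (Mut-1) and 59.2, 36.3 and 37.6 (Mut-2). WT-2 replicate 1 stood well above the rest, and the log2 fold change was -0.32 (SE 0.11, edgeR adjusted p = 0.312). Its partner Dbf4 ranged over 158 to 316 CPM in wild-type and 169 to 273 CPM in mutant libraries, with a log2 fold change of -0.10.

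Cdc45 varied least of the 38 genes among libraries, by a ratio of 1.22 from the lowest to the highest. Its values were 71.5, 72.1 and 61.7 CPM (WT-1), 69.9, 66.3 and 66.3 (WT-2), 60.2, 69.3 and 71.3 (Mut-1) and 60.2, 59.2 and 71.9 (Mut-2). The groups overlapped, and the log2 fold change was -0.07 (SE 0.10). Mcm10 and Orc6 had log2 fold changes of -0.16 and -0.25.

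Claspin (Clspn), Timeless and Tipin stabilize the fork and relay checkpoint signals, and Wdhd1 couples polymerase alpha to the helicase. Clspn (chr4:126556935-126593903) was the second gene without overlap. It was measured at 58.3, 58.0 and 49.6 CPM (WT-1), 55.1, 59.7 and 48.7 (WT-2), 39.2, 46.2 and 48.1 (Mut-1) and 42.2, 41.2 and 47.2 (Mut-2). The lowest wild-type library was at 48.7 CPM and the highest mutant one at 48.1 CPM, a narrow gap. The line values were 55.2 ± 0.607 CPM in wild type and 43.7 ± 0.326 CPM in mutant (SD, n = 2 lines), with a log2 fold change of -0.33 (SE 0.11, edgeR adjusted p = 0.272).

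Wdhd1 (chr14:47240944-47276857) was the highest gene of the set. Its libraries read 109, 114 and 88.7 CPM (WT-1), 94.0, 99.6 and 97.2 (WT-2), 105, 122 and 125 (Mut-1) and 109, 107 and 132 (Mut-2). Of the mutant libraries, 3 lay above every wild-type library, and the log2 fold change was 0.20 (SE 0.10, edgeR adjusted p = 0.453). Of the 40 expressed genes that neighbour Wdhd1 on chromosome 14, 38 were above 0 as well, with a median of 0.39. Tipin was at -0.21 and Timeless at -0.06, each with libraries of both genotypes across most of its range.

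Chromatin assembly factor 1 places histones on new DNA. Its genes Chaf1a and Chaf1b had log2 fold changes of -0.29 and -0.26 (SE 0.11 and 0.10). Chaf1a read 115, 115 and 83.9 CPM (WT-1), 92.8, 109 and 86.5 (WT-2), 66.5, 88.3 and 87.0 (Mut-1) and 72.8, 83.8 and 101 (Mut-2). Chaf1b read 143, 147 and 124 CPM (WT-1), 143, 154 and 147 (WT-2), 100, 154 and 123 (Mut-1) and 107, 114 and 129 (Mut-2). Both sets of libraries overlapped, and 52.5% of the exon bases of Chaf1a lie under Ubxn6 on the opposite strand.

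The nucleotide supply genes make deoxyribonucleotides and keep uracil out of DNA. All 5 were below 0, with a median of -0.26. Rrm2 (chr12:24708241-24714146), the small subunit of ribonucleotide reductase and second in level per length after Pcna at 152 CPM per kb, was the lowest. It was measured at 461, 464 and 323 CPM (WT-1), 438, 444 and 383 (WT-2), 309, 342 and 357 (Mut-1) and 306, 303 and 427 (Mut-2). WT-1 replicate 3 lay inside the mutant range, and Mut-2 replicate 3 was above 2 of the wild-type libraries. The line values were 420 ± 4.06 CPM in wild type and 337 ± 6.99 CPM in mutant (SD, n = 2 lines), with a log2 fold change of -0.32 (SE 0.10, edgeR adjusted p = 0.259).

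Rrm1, the large subunit, was at -0.26, the dUTPase gene Dut at -0.28 and the thymidine kinase gene Tk1, of the salvage route, at -0.18. Tyms, thymidylate synthase, was the nearest to 0 of these genes. It read 77.7, 79.6 and 62.9 CPM (WT-1), 62.6, 72.9 and 67.6 (WT-2), 56.4, 75.1 and 70.1 (Mut-1) and 61.0, 70.3 and 81.5 (Mut-2), a log2 fold change of -0.05 (SE 0.11). Dut varied most among libraries after Fen1, by a ratio of 2.35, with 216 CPM in WT-1 replicate 1 and 91.7 CPM in Mut-1 replicate 1. Top2a was at 787, 778 and 612 CPM (WT-1), 809, 784 and 657 (WT-2), 713, 738 and 709 (Mut-1) and 690, 595 and 643 (Mut-2). Its libraries overlapped and its log2 fold change was -0.13 (SE 0.10).

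The presence of an E2F site did not go with a lower value among these genes. The median log2 fold change was -0.23 in the 7 genes with a site and -0.26 in the other 24 with a promoter in the table. Over all genes tested, it was -0.07 in 513 genes with a site and -0.01 in 11536 without.

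**Figure D2:**
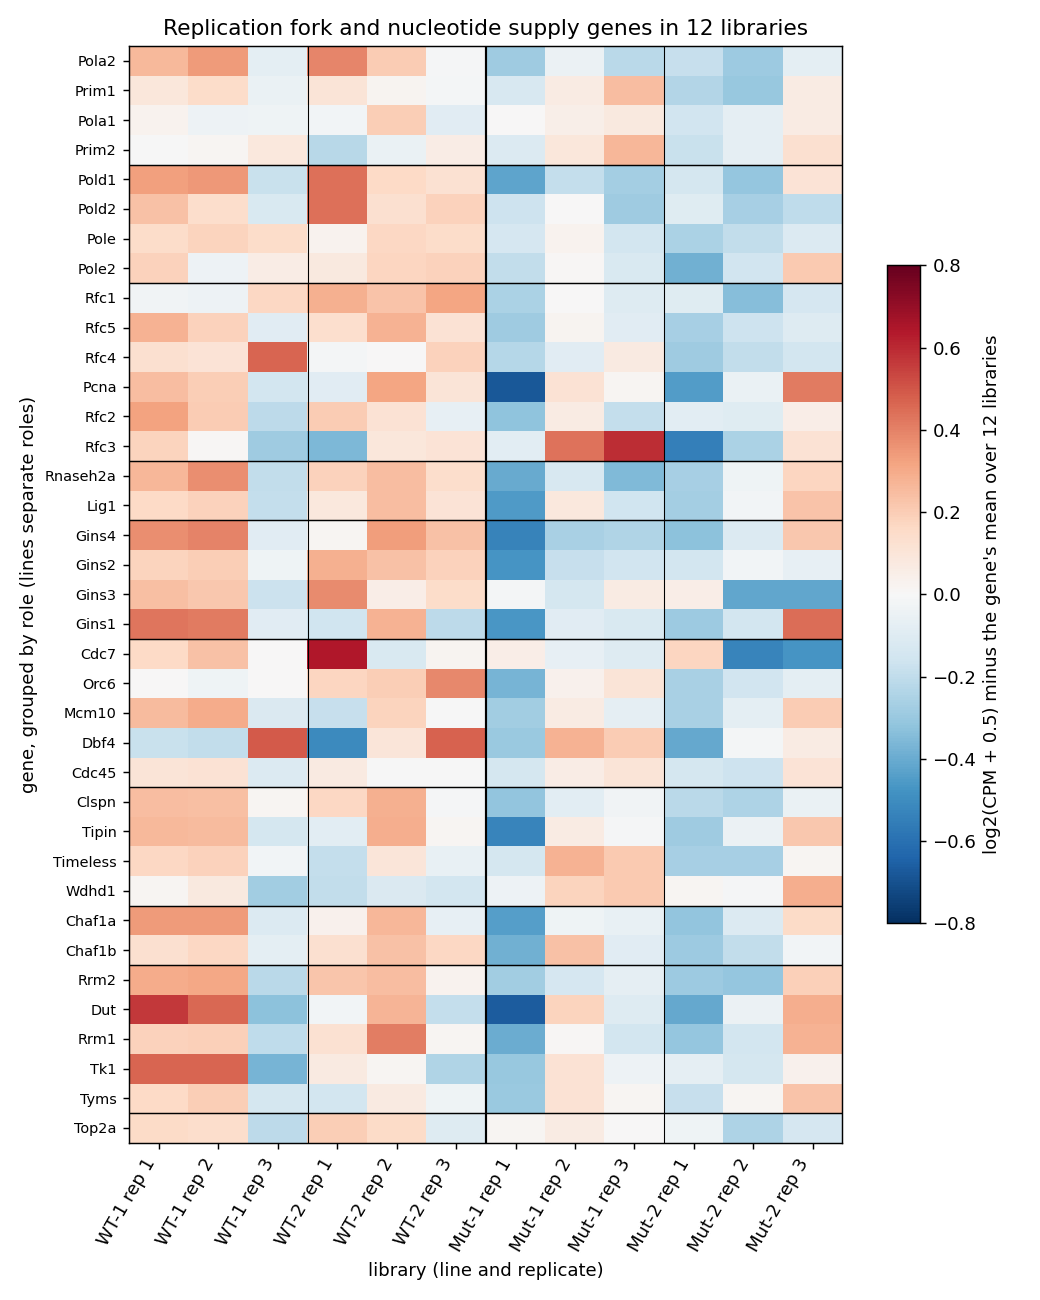
Level of 37 genes (rows, grouped by role, Fen1 left out) in the 12 libraries (columns), as log2(CPM + 0.5) minus the mean of the gene over the libraries. Most rows are above their mean in WT-1 replicates 1 and 2 and below it in Mut-1 replicate 1 and Mut-2 replicates 1 and 2.

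The genes tended to be high or low in the same libraries, within lines as well as between genotypes. Over the 37 genes without Fen1, the median log2 level relative to the mean of each gene was 0.18, 0.19 and -0.11 in WT-1, 0.08, 0.17 and 0.03 in WT-2, -0.28, 0.03 and -0.07 in Mut-1 and -0.25, -0.15 and 0.07 in Mut-2. The 3 lowest libraries were the 3 of highest feeder share, and Mut-2 replicate 3 lay above WT-2 replicate 3. In WT-1 replicate 1, 34 of the 37 genes were above their mean, whereas 3 were in Mut-1 replicate 1 and 1 in Mut-2 replicate 2. The standard deviation of this median between libraries of a line was 0.147, so the spread within lines was of the same order as the genotype difference. The set as a whole took 0.440% to 0.579% of a library's counts.

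**Figure D3:**
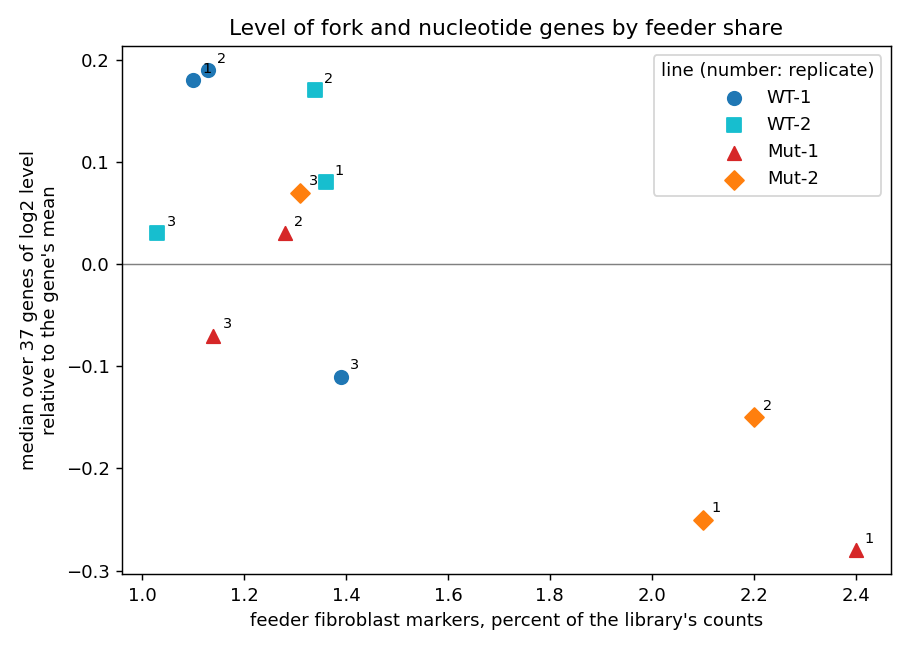
Feeder marker share of each library (x axis, percent of counts) against the median log2 level of 37 fork and nucleotide genes relative to the mean of each gene (y axis), with the symbol giving the line and the number the replicate. The 3 libraries above 2% feeder share, all mutant, have the 3 lowest medians, from -0.28 to -0.15.

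All 39 feeder markers had fitted values above 0 in the mutant lines, with a median log2 fold change of 0.58. None passed the edgeR threshold, though 36 had an unadjusted p under 0.05. DESeq2 called 18 of the 39 higher (2.16% of the genes with an adjusted p). None of the 39 was at 0 in every library, and their summed level was 10300 to 13900 CPM in wild-type and 11800 to 22800 CPM in mutant libraries. Of other markers, 11 of 13 endoderm genes were above 0 (median 0.44), 6 of 7 blood and macrophage genes (median 0.70) and 6 of 8 neural genes (median 0.22), none of them past the edgeR threshold. Their summed levels in wild-type and mutant libraries were 520 to 656 and 509 to 918 CPM for endoderm, 30.1 to 53.8 and 30.9 to 57.0 CPM for blood and macrophage, and 81.8 to 114 and 85.1 to 148 CPM for neural genes. Of embryonic stem cell genes, 13 of 18 were below 0 (median -0.07). The part of these other cell types in the level of the fork genes was not tested. The genotype difference of the fork genes was recomputed for the feeder share. With the feeder share as a covariate in the limma-voom fit, the median was -0.09 and 25 of the 38 genes were below 0, where 50.8% of all genes were. Without the 3 libraries of highest feeder share, limma-voom gave a median of -0.09 and 28 of the 38 genes below 0, where 50.4% of all genes were.

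Values by role in those 9 libraries were as follows. The delta and epsilon polymerase genes had a median of -0.27, with Pold2 at -0.33, Pold1 at -0.32, Pole at -0.22 and Pole2 at -0.08. The GINS genes had a median of -0.31, with Gins4, Gins2 and Gins3 each at -0.31 and Gins1 at -0.04. These values were uneven between the pairs of lines: in the edgeR fit of the 9 libraries Gins4 was at -0.50 in Mut-1 and 0.00 in Mut-2, and the GINS median in Mut-2 was -0.16, with 2 of 4 below 0. The 3 Okazaki fragment genes had a median of -0.27, which includes Fen1 at -0.63, a gene that cannot be read as a level. Rnaseh2a was at -0.27 and Lig1 at -0.05. The 5 helicase activation and origin genes had a median of -0.01, with Cdc7 at -0.38 and Dbf4 at 0.15. The clamp and clamp loader genes had a median of -0.17 and the chromatin assembly genes -0.10. Top2a was at -0.08 and Pola2 at -0.30. The nucleotide supply genes had a median of -0.03, the 4 fork protection genes 0.06 and the primase and polymerase alpha genes 0.06. Pcna was at 0.08, Rfc3 at 0.43 and Wdhd1 at 0.33. No member passed the threshold in this limma-voom fit, in which 5 were lower and 2 higher at an unadjusted p under 0.05 (3.1% and 6.04% of all genes), and the differences between roles were not tested. Pole, Clspn and Gins2 were then separated with mutant below wild type (2.49% of all genes), and Prim2 and Wdhd1 with mutant above wild type (3.88% of all genes).

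**Figure D4:**
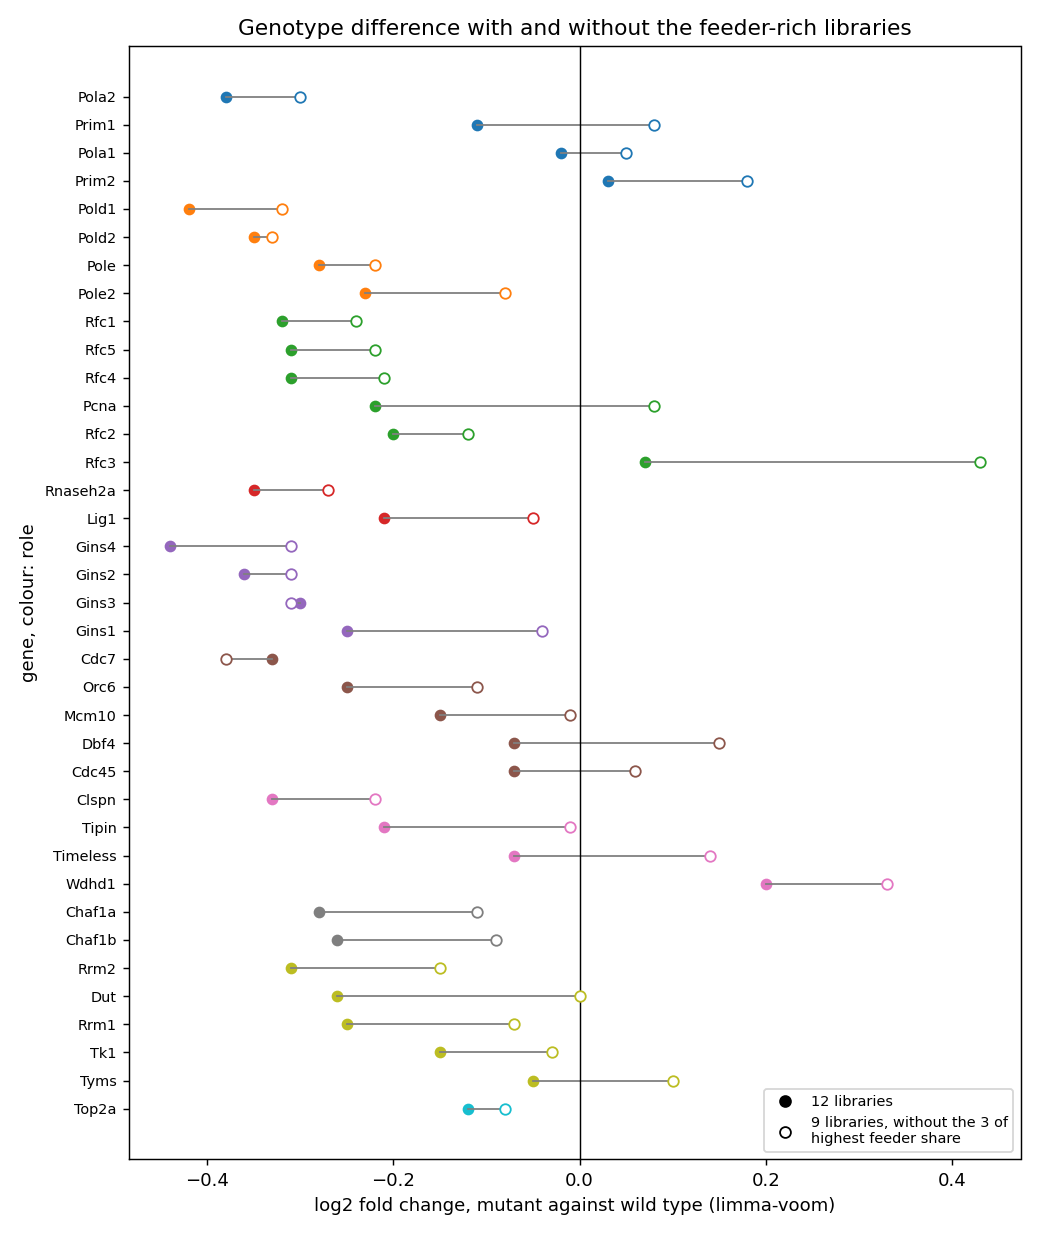
Log2 fold change of 37 genes in mutant against wild type from limma-voom (x axis), with filled points for all 12 libraries and open points for the 9 left without the 3 of highest feeder share. Most open points lie to the right of the filled ones, and those of Pold1, Pold2, Pola2, Gins2, Gins3, Gins4 and Cdc7 stay at or below -0.30.

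Pairs of lines were compared in an edgeR fit of the 12 libraries, whose p-values measure only the spread between libraries of a line. In Mut-1 against WT-1 the median over the 38 genes was -0.24 and 31 were below 0, beside 46.9% of all genes, and without Mut-1 replicate 1 the median was -0.15. In Mut-2 against WT-2 it was -0.22 and 34 were below 0, beside 50.1% of all genes, and the median was -0.12 without Mut-2 replicate 1 and -0.33 without Mut-2 replicate 3. Between lines of 1 genotype the medians were -0.01 in WT-2 against WT-1 and -0.01 in Mut-2 against Mut-1, with 20 of the 38 below 0 in each.

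None of the 38 genes passed in any pair by edgeR. The shares of all genes passing were 0.327% in Mut-1 against WT-1, 0.925% in Mut-2 against WT-2, 0.0181% in WT-2 against WT-1 and 0.26% in Mut-2 against Mut-1. At an unadjusted p under 0.05, 10 genes were lower in Mut-1 against WT-1 (4.81% of all genes), 12 in Mut-2 against WT-2 (5.45%), 0 in WT-2 against WT-1 (3.44%) and 2 in Mut-2 against Mut-1 (3.65%). None of the 38 was higher at that p in these pairs, where 6.47%, 9.67%, 4.17% and 3.24% of all genes were. The lowest in Mut-1 against WT-1 apart from Fen1 was Gins4 at -0.59 (SE 0.17, adjusted p = 0.234). In Mut-2 against WT-2 it was Rfc1 at -0.46 (SE 0.11, adjusted p = 0.0758). The difference between these mutant against wild-type pairs was tested as an interaction in edgeR: 0 of the 38 genes passed (0.0726% of all genes), with a smallest adjusted p of 0.649 and 0 genes at an unadjusted p under 0.05 in either direction (3.93% of all genes lower and 4.15% higher).

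A few calls appeared under other settings. DESeq2 called 3 genes lower in Mut-2 against WT-2 (1.47% of all genes): Rfc1 (adjusted p = 0.00361), Pold2 (0.0357) and Pole (0.0457). Without the filter on low counts, edgeR called Gins4 lower in Mut-1 against WT-1 (adjusted p = 0.0279), where 0.487% of all genes were. Without WT-1 replicate 3, the wild-type library with the lowest level of the set, edgeR called Gins4, Pold1 and Rnaseh2a lower in that pair (adjusted p = 0.0401, 0.0427 and 0.0417), where 0.792% of all genes were. In that fit WT-1 was left with replicates 1 and 2 only, the near-alike pair that adds little independent evidence of spread.

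Without the 3 feeder-rich libraries, Mut-1 against WT-1 had a median of -0.15, with 28 of the 38 genes below 0 and 50.6% of all genes. Mut-2 against WT-2, in which Mut-2 replicate 3 alone was left to stand for its line, had a median of 0.01, with 18 of the 38 below 0 and 52.6% of all genes. By the median, Mut-2 was thus below WT-2 in its 2 feeder-rich libraries and level with it in the other library. Single genes in that 1 library ran from -0.71 to 0.45 against WT-2.

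**Figure D5:**
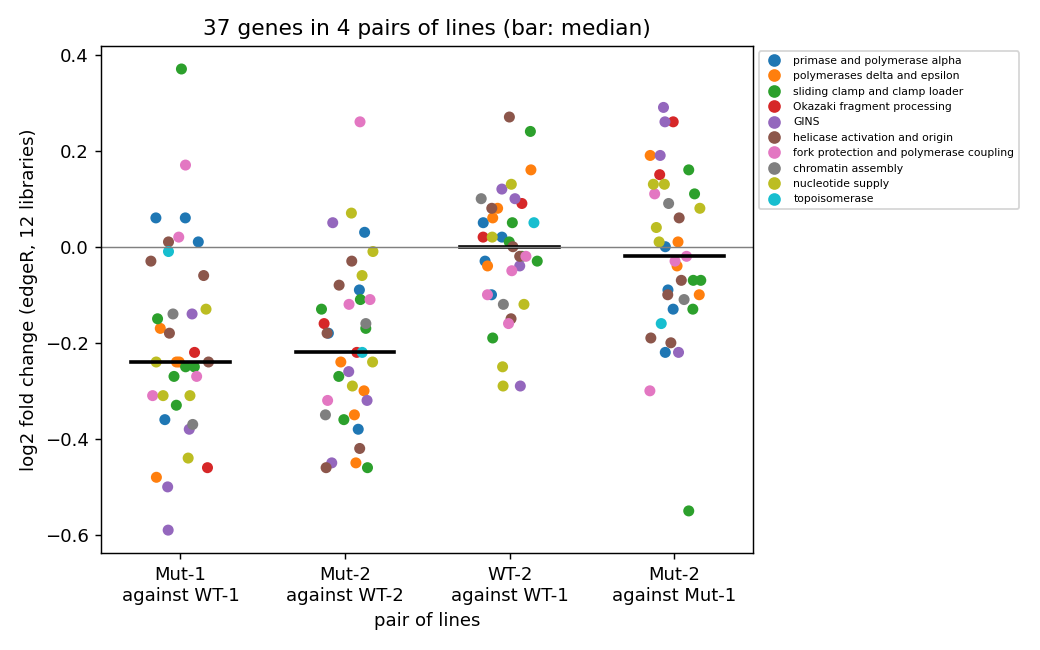
Log2 fold change of 37 genes (points, coloured by role, Fen1 left out) in 4 pairs of lines, from the edgeR fit of 12 libraries, with a bar at the median. Most points of both mutant against wild-type pairs lie below 0, with medians of -0.24 and -0.22, and those of the pairs within a genotype are spread around 0.

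The 38 genes lie on 15 chromosomes, and for some the neighbouring genes differed too. On chromosome 8, which carries Rnaseh2a, Gins2, Gins3, Gins4 and Orc6, the other expressed genes had a median of -0.21 in Mut-2 against WT-2 and 0.17 in WT-2 against WT-1. In Mut-2 against WT-2 these 5 genes were at -0.22, -0.32, -0.45, -0.26 and -0.42. In Mut-1 against WT-1, where the median of chromosome 8 was -0.03, they were at -0.46, -0.38, -0.14, -0.59 and -0.06. Prim1 and Timeless lie close together on chromosome 10, and in Mut-1 against WT-1 they were at 0.01 and 0.02 beside neighbours with medians of 0.27 and 0.19, of which 36 and 35 of 40 were above 0. Wdhd1 was below its neighbours in both pairs, at 0.17 beside 0.38 in Mut-1 against WT-1 and at 0.26 beside 0.43 in Mut-2 against WT-2. Pold1, Pola2 and Clspn had neighbours with medians of 0.05, -0.05 and 0.00 in the genotype comparison.

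Genes that work beside the fork machinery were listed separately, and none passed the edgeR threshold between genotypes. Of 14 origin licensing genes 14 were below 0, with a median of -0.23, which was -0.05 with the feeder share as a limma-voom covariate. Cdc6, which loads the helicase, went from 72.7 ± 3.52 CPM in wild type to 52.5 ± 1.71 CPM in mutant (SD, n = 2 lines; log2 fold change -0.47, edgeR adjusted p = 0.188), and was at -0.21 with the covariate. Its partner Cdt1 was at -0.42 and the licensing inhibitor Gmnn at -0.30 (-0.20 and -0.05 with the covariate). Of 30 other genes of nucleotide synthesis and turnover 27 were below 0, with a median of -0.23 (-0.15 with the covariate). Among them the pyrimidine enzyme Dhodh was at -0.42 and the dNTP hydrolase Samhd1 at -0.41 (each at -0.36 with the covariate).

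Of 31 other fork proteins 26 were below 0, with a median of -0.12 (-0.06 with the covariate). The histone chaperone Asf1b was at -0.55, the nuclease and helicase Dna2 at -0.43 and Atad5, which unloads PCNA, at -0.39. With the covariate these genes were at -0.51, -0.37 and -0.24. Of 34 regulators of S phase 25 were below 0, with a median of -0.20 (-0.06 with the covariate). Ccnd2, cyclin D2, was above 0 at 0.65 (0.23 with the covariate). The E2F partner Tfdp1 was at -0.48 and the phosphatase Cdc25a at -0.36 (-0.28 and -0.10 with the covariate). All 8 replication checkpoint genes were below 0, with a median of -0.22 (-0.23 with the covariate). Hus1, of the checkpoint clamp, was at 55.9 to 67.8 CPM in wild-type and 43.4 to 51.4 CPM in mutant libraries, without overlap. Asf1b had no overlap either, and each of these lists held 1 gene separated with mutant below wild type (0.645% of all genes). The clamp partner of Hus1, Rad9a, was at -0.28 and the checkpoint kinase Chek1 at -0.24 (-0.27 and -0.07 with the covariate). Some of these genes, named for their small p, passed with other tools. Limma-voom called Hus1 (adjusted p = 0.029), Dhodh (0.0415) and Asf1b (0.0476) lower, where 0.267% of all genes were. That fit treated the 12 libraries as nearly independent, so these p-values are not a test over lines. DESeq2 on line totals called Tfdp1 (0.0236), Asf1b (0.0376) and Cdc6 (0.0399) lower and Ccnd2 higher (0.00517). Of the genes with an adjusted p in that fit, 0.476% were called lower and 2.16% higher.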

How the data were processed

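Counts per gene in 12 libraries were deposited by the authors as whole numbers, not normalized, per the file headers and values. Per the submitters' processing notes the tools were HISAT2 2.1.0, Bowtie2 2.2.3, HTSeq 0.6.0 and bcl2fastq, on GRCm38. The sources used here do not give the roles of these tools, the annotation or whether counting used strand. The effect of overlapping genes on opposite strands on these counts is therefore not known. Counts were summed per line and tested in edgeR 4.0.16 by quasi-likelihood (R 4.3.3; TMM, filterByExpr, Benjamini-Hochberg over all 18749 genes tested, threshold 0.05). Pairs of lines came from 1 edgeR fit of the 12 libraries (16533 genes tested). DESeq2 1.42.0 and limma 3.58.1 (voom, line as random block, consensus correlation -0.002) served as alternatives. CPM values are TMM-normalized, and library levels are log2(CPM + 0.5) relative to the mean of a gene. The genes and all lists were chosen with earlier results of these data known. Library values are given in full for the lowest and highest gene of each role by log2 fold change and for any gene at 0.5 or more in size between lines of a genotype; those of Pole were added after its values were seen. In the other lists, the 3 genes with the smallest p are named, except 1 that is not reported here. Positions are from GENCODE M21. Sequence after the transcription start was kept short, so whole promoter windows were not printed as first planned. Promoters of Gins1, Gins2, Gins4, Pole, Prim2, Rfc2 and Tipin were not analysed here. Library numbers were checked as pairs: same-numbered deviations correlated at 0.647, 0.355 and 0.109 in WT-2 and Mut-2, 0.15, 0.308 and 0.558 in WT-1 and WT-2, 0.379, 0.359 and 0.236 in WT-2 and Mut-1, and 0.465, 0.161 and 0.3 in Mut-1 and Mut-2. They were at -0.116, 0.192 and 0.103 in WT-1 and Mut-1, and below 0 in WT-1 and Mut-2.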

Additional observations from a re-analysis of the deposited data

Results flagged for a closer look

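Each gene was examined for a library far from the others of its genotype, in 76 groups of 6 libraries, of which chance alone marks about 1 in 20. There were 3 such libraries. Pole in WT-2 replicate 1 was at 125 CPM, below the other wild-type libraries, which started at 136 CPM. Gins1 in Mut-2 replicate 3 was at 48.3 CPM, above the other mutant libraries, which ended at 33.1 CPM. Gins2 in WT-1 replicate 3 was at 62.8 CPM, below the other wild-type libraries, which started at 73.0 CPM.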

How the results depend on the processing

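The median of -0.26 lay between -0.28 and -0.22 with RLE size factors, DESeq2, no filter on low counts, limma-voom, limma-voom with a replicate block (-0.25), without chromosome 14 genes and without any 1 line (a lone line is then assumed to vary like the other genotype). It moved to -0.09 with the feeder share as a covariate, and to -0.09 when the 3 feeder-rich libraries were left out. With 1 library left out it ranged from -0.30 to -0.17, and the genes below 0 from 32 to 36. The median of Mut-1 against WT-1 then ranged from -0.33 to -0.15, and that of Mut-2 against WT-2 from -0.33 to -0.12. Genes called lower in Mut-1 against WT-1 ranged from 0 to 3. Genes with every mutant library below every wild-type library ranged from 2 to 7, the 7 being without WT-1 replicate 3 (4 without Mut-1 replicate 2 or 3). Leaving out a library can only keep or raise such a count, for any set of genes. Over all genes tested the share was 0.645% in the 12 libraries and 2.49% without the 3 feeder-rich ones. It is not given here with 1 library left out, so the rise cannot be read as a trait of the 38 genes. Without the feeder-rich libraries Mut-2 against WT-2 had a median of 0.01, an alternative chosen after seeing the data, and 2 genes had every mutant library above every wild-type library. RLE size factors left 1 gene with every mutant library below. The number of genes called lower was 1 in Mut-1 against WT-1 with no filter and 3 in Mut-2 against WT-2 with DESeq2. With a log2 fold change of 1 or more in size also required, or with the replicate block, 0 of the 38 genes passed in each pair.

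The sign of single genes, all far from the threshold, reversed as follows. With the feeder share as a covariate, log2 fold changes turned to 0.03 for Pola1, 0.07 for Prim1, 0.08 for Pcna, 0.06 for Cdc45, 0.01 for Mcm10, 0.15 for Dbf4, 0.13 for Timeless, 0.01 for Tipin, 0.11 for Tyms and 0.02 for Dut. Without the feeder-rich libraries they were 0.05 for Pola1, 0.08 for Prim1, 0.08 for Pcna, 0.06 for Cdc45, 0.15 for Dbf4, 0.14 for Timeless and 0.10 for Tyms. Leaving out 1 line or 1 library at a time gave -0.07 to 0.02 for Pola1, -0.03 to 0.10 for Prim2, -0.20 to 0.35 for Rfc3, -0.21 to 0.03 for Dbf4, -0.21 to 0.07 for Timeless and -0.11 to 0.03 for Tyms. The cause of these changes was not tested. Depth limits Fen1, which had as few as 3 counts in a library.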
